A study of Homo sapiens with 4 samples.

Results

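The regions described here are stretches of open chromatin that carried an ATAC-seq peak in both AMO1 libraries with PHF19 overexpression and in neither library with the empty vector. Peaks of the 4 lists that overlapped by at least 1 bp were merged on chromosomes 1 to 22, which gave 71853 regions, and 420 of them (0.585%) had this pattern. The regions were chosen by measured values, the peak calls of all 4 libraries, so their presence and absence, their heights and their peak scores are given as descriptions and nothing is tested with them. ATAC-seq uses the Tn5 transposase to cut and tag accessible DNA, and AMO1 is an established human cell line from multiple myeloma, a cancer of plasma cells. All cells were transfected with the PCDH vector, either empty (genotype WT in the labels) or carrying PHF19 (genotype PHF19 overexpression). Each vector was profiled in a library with a plain title and in a library whose title begins with IFN. The labels give no meaning for these letters, and the 2 libraries are called IFN empty vector and IFN PHF19 overexpression here. Each group held 1 library, so no difference has a replicate check and no p-value is given. Intervals are 95% intervals that cover counting error only.

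PHF19 is a Polycomb-like protein that binds methylated histone H3 through its Tudor domain and helps to bring Polycomb repressive complex 2 to chromatin. That complex methylates histone H3 and holds developmental genes silent, and high PHF19 expression is known from aggressive myeloma. An ATAC-seq peak marks DNA that Tn5 reached more often than its surroundings, as at active promoters and enhancers. It does not report histone methylation or transcription, and in a bulk library more cells with an open site and more cutting per cell cannot be told apart.

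The unprefixed libraries held 27.4 M (mega) fragments with empty vector and 18.2 M with PHF19 overexpression, and no peak in them was lower than 10 and 8 fragments. The IFN-prefixed libraries held 65.9 M and 16.4 M, and no peak lower than 16 and 8. The IFN empty vector list is also set apart by its header, which points to another project folder. Gene-end peaks, those no more than 1000 bp from the start or the end of a protein-coding gene, were found in all 4 libraries at 10 of 10 plasma cell markers. The same held for 1 of 5 B cell markers, 1 of 5 T and NK cell markers, 1 of 5 myeloid markers, 0 of 4 erythroid markers and 4 of 5 markers of stroma and epithelium.

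The sequences shown first are promoter windows under members, since these are the places where a member overlapped the window round a known transcription start, without always reaching the start itself. Of the 420 regions, 28 overlapped 32 promoter windows (250 bases before to 50 after a start) of 29 genes, 19 of them protein-coding and 10 lncRNA genes. Members over such a window were thus a small part of the set. Of all 33725 windows, 14658 lay under the 34809 regions with a peak in all 4 libraries. Another 233 lay under the 6184 regions with a peak in both empty vector libraries only. In the windows under members the number of CG dinucleotides ran from 1 to 42. In the windows below, CG is in capitals and the rest in lower case, each reads 5′ to 3′ on the strand of its gene, and all come from RefSeq with its GRCh38.p14 coordinates. RIPK1, a kinase of TNF receptor signalling and cell death, DOK7, an activator of the muscle kinase MuSK, and PRIMA1, the membrane anchor of acetylcholinesterase, were among the tallest gene-end members. NEUROG3, a transcription factor of endocrine progenitors, was added after its values were seen. The windows of these 4 genes hold 36, 34, 35 and 31 CG.
RIPK1, chr6:3063717-3064016, plus strand: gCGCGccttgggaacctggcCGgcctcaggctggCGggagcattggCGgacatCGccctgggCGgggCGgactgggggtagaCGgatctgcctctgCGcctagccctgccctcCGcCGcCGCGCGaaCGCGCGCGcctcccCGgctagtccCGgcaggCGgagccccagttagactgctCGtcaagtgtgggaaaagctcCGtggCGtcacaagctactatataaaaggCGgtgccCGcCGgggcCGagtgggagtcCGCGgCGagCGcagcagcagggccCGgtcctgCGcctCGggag
DOK7, chr4:3463056-3463355, plus strand: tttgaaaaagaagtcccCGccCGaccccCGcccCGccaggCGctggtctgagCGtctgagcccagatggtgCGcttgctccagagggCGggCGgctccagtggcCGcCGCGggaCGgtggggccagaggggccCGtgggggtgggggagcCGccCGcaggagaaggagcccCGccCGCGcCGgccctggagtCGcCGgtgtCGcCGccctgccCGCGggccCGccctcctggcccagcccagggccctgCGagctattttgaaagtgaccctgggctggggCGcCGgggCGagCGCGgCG
PRIMA1, chr14:93788436-93788735, minus strand: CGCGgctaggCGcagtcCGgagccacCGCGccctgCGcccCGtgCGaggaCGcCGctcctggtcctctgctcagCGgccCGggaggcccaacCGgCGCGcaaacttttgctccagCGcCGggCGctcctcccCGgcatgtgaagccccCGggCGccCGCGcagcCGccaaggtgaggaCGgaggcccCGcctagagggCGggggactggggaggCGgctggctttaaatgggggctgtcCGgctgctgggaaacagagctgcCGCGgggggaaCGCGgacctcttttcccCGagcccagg
NEUROG3, chr10:69573373-69573672, minus strand: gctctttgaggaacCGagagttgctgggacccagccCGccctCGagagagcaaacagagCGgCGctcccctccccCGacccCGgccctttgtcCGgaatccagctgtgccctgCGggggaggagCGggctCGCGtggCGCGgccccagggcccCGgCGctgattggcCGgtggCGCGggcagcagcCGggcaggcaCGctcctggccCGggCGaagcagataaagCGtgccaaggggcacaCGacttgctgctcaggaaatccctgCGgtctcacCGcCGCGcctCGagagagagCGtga

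The windows of 3 other genes, picked after their values were seen, are poor in CG. PCDHA7 encodes a clustered protocadherin of neurons, CASP4 an inflammatory caspase and SPRR2F a protein of the skin's cornified envelope, and their windows hold 7, 3 and 2 CG.
PCDHA7, chr5:140834019-140834318, plus strand: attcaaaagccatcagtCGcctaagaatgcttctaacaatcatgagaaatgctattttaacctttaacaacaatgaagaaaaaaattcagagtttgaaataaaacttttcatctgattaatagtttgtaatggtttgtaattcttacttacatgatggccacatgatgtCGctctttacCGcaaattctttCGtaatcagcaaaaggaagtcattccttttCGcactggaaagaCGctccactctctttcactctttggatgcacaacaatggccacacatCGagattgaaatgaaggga
CASP4, chr11:104968525-104968824, minus strand: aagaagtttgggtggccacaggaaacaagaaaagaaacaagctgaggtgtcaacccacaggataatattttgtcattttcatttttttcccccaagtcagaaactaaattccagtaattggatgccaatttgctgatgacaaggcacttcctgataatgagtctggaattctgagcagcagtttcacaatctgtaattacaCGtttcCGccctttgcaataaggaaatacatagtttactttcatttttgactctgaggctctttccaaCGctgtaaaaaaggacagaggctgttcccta
SPRR2F, chr1:153113467-153113766, minus strand: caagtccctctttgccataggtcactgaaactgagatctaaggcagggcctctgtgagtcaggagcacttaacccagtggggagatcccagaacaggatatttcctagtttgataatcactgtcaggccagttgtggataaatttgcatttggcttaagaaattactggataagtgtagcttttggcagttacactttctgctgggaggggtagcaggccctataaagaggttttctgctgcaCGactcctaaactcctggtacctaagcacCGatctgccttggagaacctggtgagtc

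By CG content the windows under members lay near all windows of the table and below those open in every library, with region height not matched. The median was 13 CG under members, against 14 over all 33725 windows, 27 under regions with a peak in all 4 libraries, 7 under regions with a peak in both empty vector libraries only, and 4 under no region. At least 10 CG were present in 56.2% of the windows under members (18 of 32), in 56.3% of all windows and in 90.1% of the windows under regions of all 4 libraries. CG-rich and CG-poor windows like those shown above thus occurred in members about as often as over all windows.

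A search for 12 short motifs on both strands found the Runt-factor letters TGTGGT in 7 of the 32 windows (21.9%, against 13.1% of all windows) and the SP/KLF letters GGGCGG, which themselves contain a CG, in 12 (37.5%, against 45.04%). Under regions of both empty vector libraries only, TGTGGT was in 22.7% of 233 windows and GGGCGG in 28.3%. The share of TGTGGT was thus not particular to members. The letters CCAAT, bound by NFY, were in 8 windows, against 34.4% of all windows. The short CTCF core CCCTC was in 24, against 71.1% of all windows. TGANTCA, the AP-1 motif, was in 3 windows (7.67% of all windows), AGATAAG for GATA factors in 2 (2.66%) and the ETS motif in 1 (4.19%). The E-box CAGCTG was in 6 (18.0% of all windows) and the E-box CACGTG in 1 (7.18%). The interferon-stimulated response element (ISRE), the ETS-IRF composite motif, which can overlap it, and the MAF letters TGCTGAC were in none of the 32 windows, against 3.55%, 2.78% and 4.12% of all windows. With 32 windows each window is 3.13% of the set, and a match or its lack is a description of these letters only. The windows are not all separate, since some belong to the same gene, as at RNF182 and TSPAN4, and windows of RNF182 overlap.

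1 member held a microRNA hairpin, a match made after the values were seen. The region chr15:89367472-89368252 covers MIR9-3, a source of miR-9, a microRNA of neural development. It had 34 fragments at the summit with PHF19 overexpression and 25 with IFN PHF19 overexpression, which placed it 22nd by the smaller height. Both mature forms are shown because the hairpin lies wholly within the member, with the seed, bases 2 to 8, in capitals. The seeds of the 2 arms differ.
hsa-miR-9-5p: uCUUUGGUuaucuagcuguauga
hsa-miR-9-3p: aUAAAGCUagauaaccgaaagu

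PHF19 itself held the tallest of the 420 regions. The gene lies on the minus strand at chr9:120855651-120904128, and the member chr9:120857950-120858284 sits inside it, with its summit 2442 bp from the lower end, which is the gene's 3′ end. It had 144 fragments with PHF19 overexpression, or 7.90 per M (6.66 to 9.30), and 120 with IFN PHF19 overexpression, or 7.33 per M (6.08 to 8.76). The next tallest member by the smaller height reached 3.46 and 3.85 per M, so PHF19 stood apart from the rest of the set in both libraries. The peaks were 335 and 323 bp wide. Of the 3987 regions in all 4 libraries with a smaller height between 6 and 9 fragments per M, the median widths were 1226 and 1211 bp, and 2 were no wider than the PHF19 region in both libraries.

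The other open regions of PHF19 were present in all 4 libraries and did not share this pattern. The region chr9:120868450-120869615 reached 12.4 fragments per M with empty vector, 10.5 with PHF19 overexpression, 9.91 with IFN empty vector and 9.04 with IFN PHF19 overexpression. The region chr9:120875707-120878708 reached 8.88, 9.11, 7.27 and 6.66 in the same order. The 2 regions nearer the gene's start were at 6.43, 4.94, 5.93 and 5.68 and at 5.99, 4.61, 5.19 and 4.76. These regions were lower with PHF19 overexpression than with empty vector in both pairs, except chr9:120875707-120878708 in the unprefixed pair. The vector carries PHF19, so fragments from a vector copy and from the chromosomal gene cannot be told apart in these lists.

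Apart from PHF19 the regions were low beside those with a peak in all 4 libraries. The median height was 0.713 fragments per M with PHF19 overexpression (quartiles 0.549 and 0.878) and 0.855 with IFN PHF19 overexpression (0.672 and 1.10), which is 27.7% and 30.4% of the medians of 2.58 and 2.81 over the 34809 regions with a peak in all 4 libraries. Low heights were not particular to members. Regions of both empty vector libraries only had medians of 0.694 with empty vector and 0.713 with IFN empty vector. Those of a lone PHF19 overexpression or IFN PHF19 overexpression library had 0.549 and 0.672. At least 2 fragments per M in both PHF19 overexpression libraries were reached by 8 members, at least 1 by 61 and at least 0.5 by 337. The lowest member had 8 fragments at the summit, the minimum of either list, and 47 members were at that minimum in at least 1 library. Most members are thus single small summits close to the limit of calling: 395 had 1 summit in both libraries, and 157 reached a −log10 q of 5 in both. A single summit was also the usual case among all peaks of these lists. They held 49646 summits in 42941 peaks with PHF19 overexpression and 51666 in 44664 with IFN PHF19 overexpression. These counts of members were not compared with regions of similar height, so they describe the members without setting them apart.

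**Figure D1:**
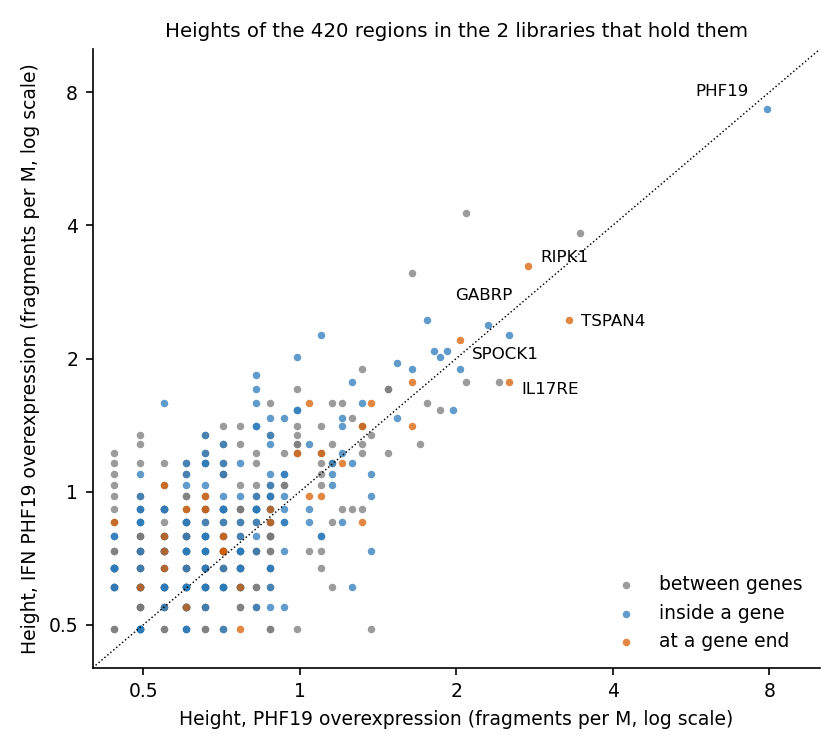
Height of each of the 420 regions in the PHF19 overexpression library (x axis) and in the IFN PHF19 overexpression library (y axis), in fragments per M on log scales, with points coloured by position relative to protein-coding genes and a dotted line of equality. PHF19 stands alone at 7.90 and 7.33, RIPK1, TSPAN4, GABRP, SPOCK1 and IL17RE are among the tallest of the others, and the columns and rows of points at the lower left are whole fragment counts.

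The same regions tended to be tall in both libraries. Pearson's r of the log2 heights was 0.68 across the 420 regions (0.66 without PHF19) and Spearman's rank coefficient 0.53, a description across regions that share a calling threshold in each library. In 291 members the IFN PHF19 overexpression height was the larger, and the median ratio of the 2 heights was 1.11, against 1.08 over the regions in all 4 libraries. The peaks of the 2 libraries overlapped directly in all 420 members, with a median of 70 bp between their summits. Regions in all 4 libraries had 29 bp, but those of matched height, between 0.549 and 0.855 fragments per M, had 66 bp, against 69 bp for the 237 members in that range.

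The members were also narrow, which their height alone nearly matched. Merged widths ran from 288 to 1818 bp with a median of 542, and 25 were 1000 bp or wider. The peaks themselves had median widths of 426.5 and 421.5 bp, against 794 and 783 bp for regions in all 4 libraries. Within the matched range of heights the medians were 434 and 413 bp for members and 475 and 481 bp for the 3830 regions in all 4 libraries. The widest members were chr3:125492087-125493904 inside SNX4, a sorting nexin of endosomes, at 1818 bp, chr16:2070402-2072049 inside TSC2, the tuberous sclerosis gene tuberin, at 1648 bp, and chr6:2875381-2876909, 10361 bp from SERPINB9, an inhibitor of granzyme B, at 1529 bp. The last had a peak of 296 bp with PHF19 overexpression and of 1529 bp with IFN PHF19 overexpression.

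**Figure D2:**
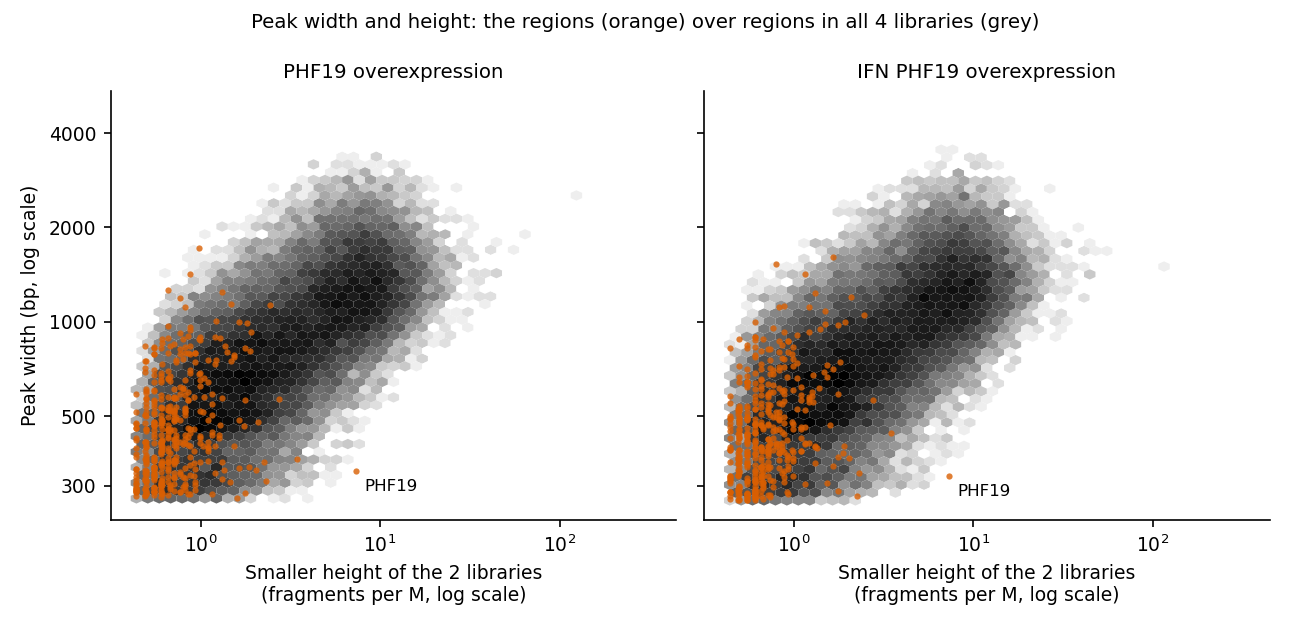
Peak width in bp (y axis, log scale) against the smaller of the 2 heights in fragments per M (x axis, log scale) in the PHF19 overexpression library (left) and the IFN PHF19 overexpression library (right), with members in orange over the density of regions in all 4 libraries in grey (darker holds more regions, on a log scale). The members fill the low left corner of the grey cloud, and the PHF19 region, at 335 and 323 bp, lies below it.

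After PHF19 the tallest regions differed widely in the authors' fold enrichment over the local background. GABRP, a subunit of a GABA-A receptor, held chr5:170809513-170809840 with 42 and 39 fragments (2.30 and 2.38 per M) and fold enrichments of 11.2 and 11.8. SPOCK1, a secreted proteoglycan, held chr5:137499085-137499451 at a gene end with 37 and 36 fragments and folds of 10.9 and 10.5. SGCZ, a sarcoglycan of the muscle membrane complex, held chr8:15214603-15215432 with 37 and 31 fragments and folds of 10.9 and 9.48. These peaks stood on a low background, and with PHF19 and a region inside VPS13B, which was picked after its values were seen, they were the 5 members at 9-fold or more in both libraries.

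Others were tall peaks on a high background. The region chr11:61971680-61972134, 4046 bp from FTH1, the ferritin heavy chain, had 63 fragments in each library (3.46 and 3.85 per M) and folds of 2.84 and 3.06. RIPK1 held chr6:3063743-3064330 with 50 and 53 fragments (2.74 and 3.24 per M) and folds of 3.78 and 4.06. TSPAN4, a tetraspanin of the cell membrane, held chr11:843847-844976 with 60 and 40 fragments (3.29 and 2.44 per M) and folds of 2.47 and 1.96. For these the surroundings were also cut often: a region with a peak in all 4 libraries lay 3143 bp from the member near FTH1, 3862 bp from that of RIPK1 and 300 bp from that of TSPAN4. For GABRP, SPOCK1 and SGCZ the distance was 17589, 234978 and 21660 bp. Over all members the median fold was 4.51 and 4.85, against 7.62 and 7.96 for regions in all 4 libraries. Regions of both empty vector libraries only had 4.33 with empty vector and 4.90 with IFN empty vector. Those of a lone PHF19 overexpression or IFN PHF19 overexpression library had 3.76 and 4.29.

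The remaining 13 of the 20 tallest regions lay between 1.59 and 4.27 fragments per M in either library. A region 442021 bp from ID2, an inhibitor of basic helix-loop-helix factors, was the most uneven, with 38 fragments (2.08 per M) and 70 (4.27 per M). Inside genes stood FBRSL1 (35 and 34 fragments), BEST4, an anion channel (33 and 34), TSC2 (30 and 31) and a stretch shared by SMIM35 and the serine protease gene TMPRSS4 (32 and 40). At gene ends stood IL17RE, a receptor for interleukin 17C (46 and 29), and DOK7 (30 and 29). Away from genes were a region 5117 bp from TUBB2A, a beta-tubulin (44 and 29), another 225306 bp from C16orf95 (38 and 29), and a pair on chromosome 2, 71404 bp from RDH14 (32 and 26) and 229902 bp from NT5C1B-RDH14 (30 and 51). A further region lay inside an uncharacterised locus on chromosome 2 (46 and 37). In all, 4 of the 20 were on chromosome 2, 3 on chromosome 11, 5 at gene ends, 9 inside genes and 6 between genes.

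Most members were away from gene ends. Of the 420, 217 (51.7%, Wilson interval 46.9 to 56.4) lay between protein-coding genes, 171 (40.7%, 36.1 to 45.5) inside a gene and 32 (7.62%, 5.45 to 10.6) at a gene end. Over all merged regions the shares were 42.1%, 40.7% and 17.2%, and over regions in all 4 libraries 34.5%, 35.2% and 30.3%. Height goes with these shares: regions in all 4 libraries of matched height were at gene ends in 4.96% (190 of 3830), and members in that range in 5.91% (14 of 237, 3.55 to 9.67). Regions of the PHF19 overexpression library alone were at gene ends in 5.06%, those of the IFN PHF19 overexpression library alone in 4.06%, and those of both empty vector libraries only in 4.95%.

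**Figure D3:**
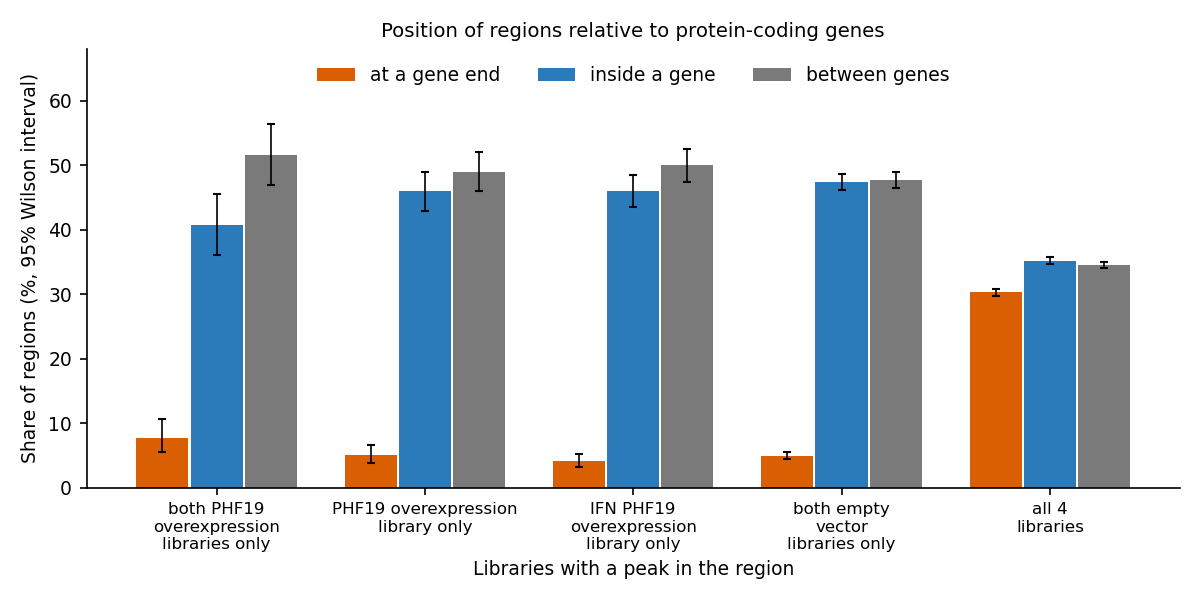
Share of regions at a gene end, inside a gene and between genes (y axis, percent, with 95% Wilson intervals as error bars) for members, at the left, and for 4 other patterns of peak calls. The members have 7.62% at gene ends, regions in all 4 libraries 30.3%, and the other 3 patterns between 4.06% and 5.06%.

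Members between genes were remote. Their median distance to the nearest protein-coding gene was 76105 bp, against 28444 bp for regions in all 4 libraries between genes, 52829 and 66949.5 bp for regions of a lone PHF19 overexpression or IFN PHF19 overexpression library, and 42050 bp for those of both empty vector libraries only. Of the 217, 64 (29.5%, 23.8 to 35.9) lay inside a lncRNA gene, close to the 27.9% of regions in all 4 libraries between genes. The nearest region with a peak in all 4 libraries was a median of 34205 bp away, against 14762 bp from such a region to the next of its kind. For regions of a lone PHF19 overexpression or IFN PHF19 overexpression library it was 26869 and 28678 bp away, and for those of both empty vector libraries only 18882 bp. Distances were not compared at matched height. For 79 members the nearest such region was within 10000 bp, and for 179 it was more than 50000 bp away.

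The gene ends with a member belonged to 33 genes, 0.173% of the 19122 protein-coding genes. The 12 tallest were RIPK1, TSPAN4, SPOCK1, IL17RE, DOK7, ADAM11, C11orf87, ADGRD2, NIPAL4, KCNIP3, PRIMA1 and KCNA1, and 5 of these 12 regions, and 14 of all 32, covered a promoter window of the gene in question. ADAM11, a membrane protein of the ADAM family, had 30 and 23 fragments. ADGRD2, an adhesion G protein-coupled receptor, had 24 and 23, and NIPAL4, a magnesium transporter of skin, 22 and 19. KCNA1, a voltage-gated potassium channel, had 18 and 20 fragments, KCNIP3, a calcium-binding partner of such channels, 20 and 20, and PRIMA1 19 and 26. C11orf87 had 25 and 26.

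Of the 33 genes, 3 also had a gene-end region in all 4 libraries, against 60.7% of all protein-coding genes, and 26 had no gene-end region in any library other than a member, against 33.6% of all genes. The rule fixes part of this, since a member has no peak with the empty vector at the same place. RIPK1 and DOK7 were among the genes with no gene-end region in all 4 libraries.

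Counting regions inside genes as well, 195 of 19122 protein-coding genes (1.02%) had a member inside them or at an end. These genes were long, with a median of 167661 bp against 24490.5 bp, and of the 303 genes of at least 500000 bp, 35 (11.6%) had a member. Of the 155 genes with a member inside, away from the gene ends, 49.0% (41.3 to 56.8) had a gene-end region in all 4 libraries, against 63.1% (61.9 to 64.3) of the 6210 genes with a region of all 4 libraries inside.  Gene length was not matched in this comparison, and the medians were 201000 and 68685 bp.

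3 genes held 3 or more members. DLGAP2, a scaffold protein of the postsynaptic density, held 5, with 10 to 16 fragments in the PHF19 overexpression library and 9 to 16 in the IFN PHF19 overexpression library. RANBP17, of the importin family of nuclear transport receptors, held 3 within a stretch from 171108200 to 171149992 on chromosome 5, with 15 and 15, 20 and 13, and 12 and 14 fragments. SGCZ held 3, the tall region above and others with 16 and 15 and with 10 and 11. DLGAP2, at 970849 bp, and SGCZ, at 1153587 bp, are very long genes. A further 13 genes held 2 members each.

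Members were also counted over 15 gene lists, of Polycomb, plasma cell, myeloma, immune, neuronal and other genes. Of 390 list genes in the gene table, 8 (2.05%, against 1.02% of all genes) had a member. The list of 50 developmental factors known as Polycomb targets had 0, and so had 20 plasma cell identity genes, 27 myeloma oncogenes and tumour suppressors, 39 interferon-stimulated genes and 24 antigen presentation genes. NEUROG3, whose window is shown above, is a developmental factor with a member that is not on the first of these lists. The lists of NF-kappaB and TNF receptor genes (20), cell cycle genes (22) and WNT signalling genes (31) had 0 as well, and so had the markers of T and NK cells (20), of myeloid and erythroid cells (19) and of stroma and epithelium (18). At 1.02% a list of 50 genes is too short for a count of 0 to say much.

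The 8 genes were spread over 4 lists. Among 29 Polycomb complex genes PHF19 alone had a member. Among 21 genes of the B cell programme it was PAX5, the factor that holds B cell identity and is shut off in plasma cells, with chr9:36843686-36844385 at 15 and 23 fragments. The 23 cytoskeleton regulators had ARHGAP15, a GTPase-activating protein for Rac, with 10 and 12. Neuronal adhesion and synapse genes had 5 of 32: NRG1, a growth factor for ERBB receptors, with 22 and 24 fragments at its taller region, NTM, the adhesion protein neurotrimin, with 15 and 30, and CSMD1, CTNNA2 and ROBO2, each with 8 to 19. The median length of that list's genes is 1126160 bp, so its count goes with the lengths given above, and whether length accounts for it was not tested.

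The members were not spread evenly over the chromosomes. Chromosome 8 held 58 of the 420 (13.8%, 10.8 to 17.4), against 4.49% of all merged regions, 4.39% of regions in all 4 libraries and 2.99% of regions with a peak in both empty vector libraries only. That is 18.0 members per 1000 merged regions. Chromosome 5 held 45 (10.7%, 8.10 to 14.0), against 6.51% of merged regions, and chromosome 22 had the lowest rate, with 4 members or 3.12 per 1000. Chromosome 2 held 40 and chromosome 1 held 31. Regions found in a lone PHF19 overexpression or IFN PHF19 overexpression library had 8.63% and 8.99% on chromosome 8.

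Regions open in all 4 libraries were also taller with PHF19 overexpression on chromosome 8. The log2 ratio of heights per M, PHF19 overexpression over empty vector and centred on the median of all such regions, had a median of 0.29 there in the unprefixed pair and 0.26 in the IFN-prefixed pair. The next highest was chromosome 2, at 0.13 and 0.09, and chromosome 5 as a whole had 0.03 and −0.01. Before centring, the median over all these regions was −0.11 in the unprefixed pair and 0.14 in the IFN-prefixed pair. The ratio comes from the same contrast as the choice of members, though from other regions, and is given as a description.

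**Figure D4:**
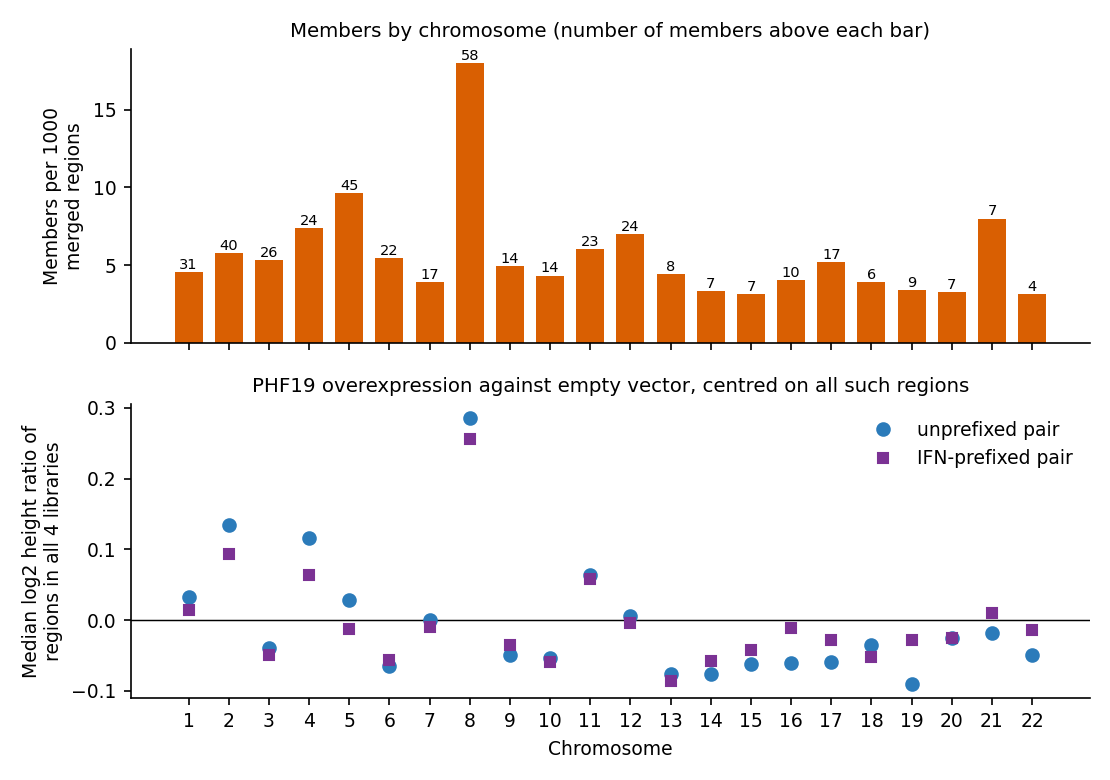
Members per 1000 merged regions on each chromosome (upper bars, with the number of members above each bar) and the median centred log2 height ratio of regions in all 4 libraries on the same chromosome (lower points, circles for the unprefixed pair and squares for the IFN-prefixed pair). Chromosome 8 is the highest in both panels, with 58 members and medians of 0.29 and 0.26.

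The same held at a finer scale. The local median is the median of that centred log2 ratio over regions of all 4 libraries within 2.5 Mb, and it is called raised here above 0.2 in both pairs. Among regions of all 4 libraries it was raised for 4087 of 34809 (11.7%), and among members for 134 of 420 (31.9%, 27.6 to 36.5). It was raised for 21.2% of regions of a lone PHF19 overexpression library, 22.5% of those of a lone IFN PHF19 overexpression library and 7.31% of those of both empty vector libraries only. A local median below −0.2 in both pairs was seen for 1 member, against 2.53% of regions in all 4 libraries.

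A raised local median was also the more frequent among members without chromosome 8 and at matched height. Without that chromosome, 90 of 362 members (24.9%) and 9.22% of regions in all 4 libraries had a raised local median. Within the matched range of heights it was 80 of 237 members (33.8%) and 338 of 3830 regions in all 4 libraries (8.83%). The other 286 members, with no raised local median, are the larger share of the set. Whether the number of DNA copies of these stretches differed between the cells was not tested.

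**Figure D5:**
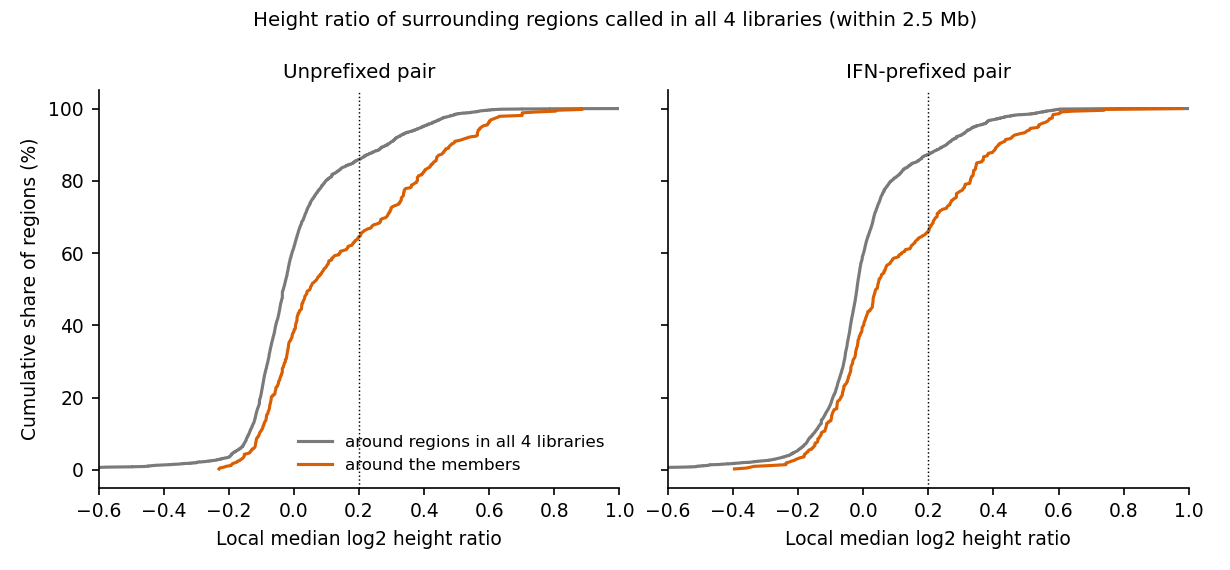
Cumulative share of regions (y axis, percent) by the local median log2 height ratio of surrounding regions in all 4 libraries (x axis) in the unprefixed pair (left) and the IFN-prefixed pair (right), for members in orange and for regions in all 4 libraries in grey, with a dotted line at 0.2. The orange curve lies to the right of the grey over most of the range, and its median is 0.05 and 0.04 against −0.03 and −0.02.

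Single neighbours gave the same picture. The nearest region open in all 4 libraries had a centred log2 ratio above 0 for 304 members (72.4%) in the unprefixed pair and for 276 (65.7%) in the IFN-prefixed pair, with medians of 0.33 and 0.18. Between neighbouring regions of all 4 libraries the shares were 49.4% and 49.0%. Among the 286 members with no raised local median they were 183 (64.0%) and 165 (57.7%).

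The 3 bins of 5 Mb with the most members show both chromosomes. The bin from 170 to 175 Mb of chromosome 5 held 9 members among 200 merged regions, among them those of GABRP and RANBP17 and a region in KCNIP1, a calcium-binding partner of potassium channels. Its regions of all 4 libraries had medians of 0.62 and 0.48 in the 2 pairs. The bin from 0 to 5 Mb of chromosome 8 held 9 among 104, in DLGAP2, CSMD1, ARHGEF10, a guanine nucleotide exchange factor, and MYOM2, a muscle sarcomere protein, and its medians were 0.32 and 0.35. The bin from 15 to 20 Mb of chromosome 12 held 7 among 77, none of them in a protein-coding gene, with medians of 0.57 and 0.38. All 3 bins stand above 0.2 in both pairs. Members were found in 249 of the 567 bins with any region, and 41 bins held at least 3. Some of these 41 had medians below 0 in both pairs, and the share of all bins above 0.2 was not counted.

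Of the 20 tallest regions, 4 had a raised local median, GABRP (0.62 and 0.56), SGCZ (0.80 and 0.54), DOK7 (0.44 and 0.57) and the region of SMIM35 and TMPRSS4 (0.27 and 0.26). For PHF19 the values were 0.07 and −0.05, and for RIPK1 −0.03 and −0.08.

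The count of 420 rests on which libraries had to lack or hold a peak. In the unprefixed pair 5028 regions (9.59% of the 52452 with a peak in either library) had a peak with PHF19 overexpression and none with empty vector, and in the IFN-prefixed pair 2001 (2.86% of 69946), so that the 420 are 8.35% of the former and 21.0% of the latter. In the reverse direction 10060 (19.2%) and 25936 (37.1%) were found, and 6184 (8.61%) had a peak in both empty vector libraries and in neither other. Without the empty vector library the count was 452, without the PHF19 overexpression library 1926, without the IFN empty vector library 2349 and without the IFN PHF19 overexpression library 1437. With lists cut to equal length it was 2055, and the reverse count 2788. The direction of that imbalance follows the depths given above, which cannot be told apart from the vector here.

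The members that nearly failed the rule had a −log10 q of 2.01 to 2.07 in their weaker library: regions near ZC3H12C (12 and 20 fragments), FCRL2 (14 and 15), SLC22A2 (14 and 10) and GARIN1A (9 and 12), and a region inside PTPRN2 (11 and 8).

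Just outside were regions with a peak in both PHF19 overexpression libraries and a weak one in an empty vector library, at a −log10 q of 2.03 to 2.11. A region near TMPO had 12 fragments with empty vector. Regions near TUBB3, AJAP1 and NHLRC2 and inside KCNAB2 had 23, 16, 16 and 16 with IFN empty vector. There were 1938 regions with both PHF19 overexpression peaks and a peak in 1 empty vector library, and in 1906 of them that library was IFN empty vector, the deepest. Their median height there was 0.577 fragments per M, against 0.977 with IFN PHF19 overexpression and 0.768 with PHF19 overexpression.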

How the data were processed

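Each of the 4 groups, taken from the titles, has 1 library. Per the file headers, the authors ran MACS2 2.1.2 on each library's paired fragments with no control, a q limit of 0.01, a genome size of 3000000000, all duplicates kept and summits within peaks called. Further names in the submitters' processing notes are the build hg38, DiffBind, Trimmomatic 0.38 and bcl2fastq 2.17. An aligner is not given in the sources used here, nor is any Tn5 offset. What the deposited pileup holds is a signal: the unscaled coverage by fragments at a summit. Each peak also has the authors' −log10 p-value, −log10 q-value and fold enrichment, which is a ratio against the surrounding background; these were read within a list only. With duplicates kept, fragments can be copies of the same molecule.

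The tallest summit of a peak was its height, in fragments per M of the library. Single heights have exact Poisson intervals and shares Wilson intervals, at 95%. Log2 ratios were centred on the median of regions in all 4 libraries. Genes, promoters and microRNAs came from RefSeq tables on GRCh38.p14, the same build. Sequence at the summits outside those windows was not used here. In a check on 800 simulated intervals, 100.0% of the merged regions had the right ends and libraries. On the real lists bedtools 2.31.1 gave the same 71853 regions (python 3.11.15, pandas 2.3.3, scipy 1.17.1).

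Named are PHF19, the 20 tallest members by the smaller height, the 12 tallest at gene ends, up to 2 genes per list, the 3 widest, the 5 weakest and the 5 nearest outside, genes with 3 or more members and the 3 fullest bins. Uncharacterised loci are not named, and 1 gene among the 20 tallest is not reported here. The members, the 15 lists and the rules were chosen with earlier results of these data known. Alternatives were stricter peaks, equal list lengths, other merging, windows and heights, chromosome X and each library left out.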

Additional observations from a re-analysis of the deposited data

How the results depend on the processing

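Of 108 alternative values, 81 stayed within 1.5 times a count or within the interval of the main value. At a −log10 q of 5 in all lists there were 239 regions with median heights of 0.878 and 1.04 fragments per M (30.2% and 32.1% of regions in all 4 libraries), a median width of 620 bp and 4 list genes. With that limit in the PHF19 overexpression lists only, there were 157 regions, with 0.878 and 1.10 (30.8% and 34.6%), 582 bp and 4 list genes. Lists of equal length gave 2055 regions, a height of 0.916 with IFN PHF19 overexpression, 25% of that of regions in all 4 libraries with PHF19 overexpression, 34 list genes and 2788 regions of both empty vector libraries only. Fold enrichment in place of pileup gave 59.2% and 60.9%, and a gene-end window of 5000 bp 16.7% at gene ends. The nearest gene at any distance gave 20 of 390 list genes, against 375 of all 19122 protein-coding genes. Of these 20, 10 were neuronal adhesion and synapse genes, and 3 were Polycomb target developmental factors, MSX2, SOX17 and WT1. Under the other alternatives the number of list genes has no count over all genes beside it.

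Left out after seeing the data, raised stretches took away 134 regions and left 5 list genes, and each library in turn gave 452 to 2349 regions. The causes were not tested. No paired analysis was possible because each group held 1 library, and the count of members comes from no test. A fit with vector and prefix as terms over regions in all 4 libraries was not run. Depth limits how these lists compare. The lowest peak had 8 fragments in the shallowest library and 16 in the deepest, or 0.49 and 0.24 per M. The deepest list thus reached lower heights per M. At unchanged height all 420 members would reach the lowest pileup of each empty vector list, and 351 the tenth percentile of both. The first count was fixed in advance, since at these depths any peak of the PHF19 overexpression lists would reach it. Reaching the lowest pileup is not the same as being called, since fold enrichment and q-value also depend on the surrounding background. What part depth had in the choice of members was not tested.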

Other observations

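Genes of neuronal families were looked at after the values were seen. Of 94 protein-coding genes whose symbols begin with KCN, most of them potassium channels and their partners, 3 had a member at a gene end, KCNA1, KCNIP3 and KCNMB2, against 0.173% of all protein-coding genes, and 6 had a member anywhere, against 1.02%. Gene length was not matched. The 6 genes ran from 8352 bp (KCNA1) to 383146 bp (KCNIP1), against a median of 24490.5 bp over all protein-coding genes. The local median was raised for KCNA1 (0.33 and 0.38) and not for KCNIP3 (0.10 and 0.09). KCNMB2, an auxiliary subunit of the calcium-activated potassium channel, had 10 and 11 fragments at its gene end. In the clustered protocadherins, whose genes share exons and overlap, 1 member lay at a gene end of PCDHA7 (16 and 15 fragments) and 1 at a gene end of PCDHGA3. The first lies inside 7 overlapping PCDHA genes at once, so it counts for all of them in the number of genes with a member.

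HOPX, a homeodomain-only protein, had a member over a promoter window with 13 and 19 fragments and a local median of 0.54 and 0.55. BMPR1B, a receptor for bone morphogenetic proteins, had 8 and 11 fragments over a window, with local medians of 0.02 and −0.01. These regions too were picked after their values were seen.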
